A study of Mus musculus with 6 samples.

Results

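The 10 genes described here are genes of primordial germ cells, the embryonic cells that become eggs or sperm, and they were chosen by symbol (Dppa3, Ddx4, Pou5f1, Dnd1, Dazl, Nanos3, Dppa5a, Dppa4, Mael and Tdrd12). All 10 had a row among the 23446 rows with gene symbols of the deposited RNA sequencing table. The embryos were C57BL/6 mice at E11.5, and the dissected tissue, the aorta-gonad-mesonephros (AGM) region, holds the dorsal aorta, the mesonephros and the genital ridge. The groups were tph2+/+, tph2+/- and tph2-/- embryos, with 2, 1 or 0 intact alleles of Tph2, a serotonin synthesis enzyme, and 2 libraries per genotype. The labels describe the RNA as coming from pairs of littermates without saying which libraries shared a litter, how the allele was made, or whether embryos were pooled. Values are RPKM, read counts scaled to the length of the gene model and to the depth of the library, so that levels can be compared between genes. Between 38800000 and 46000000 reads lay behind the libraries. The reads of each member were taken as the smallest whole counts that fitted its values, and all 60 values fitted to within 0.01 read. A library was treated as reaching detection for a gene at 3 reads.

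Primordial germ cells of the mouse arise outside the embryo proper, migrate through the hindgut and its mesentery, and settle in the genital ridges at about the stage sampled here. While they migrate they express pluripotency factors and RNA-binding proteins that keep them alive and in the germ line. On arrival they switch on genes of gametogenesis, many of which have CpG-rich promoters that are methylated in somatic cells. They are rare in a dissected AGM, so their RNA is a small part of a bulk library.

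The germ cell genes were low in every library, from 0 to 2.99 RPKM. By mean RPKM over the 6 libraries the order was Nanos3 (2.52), Dnd1 (2.24), Dppa5a (1.77), Pou5f1 (0.908), Dppa3 (0.372), Dppa4 (0.231), Ddx4 (0.196), Dazl (0.0553), Tdrd12 (0.0528) and Mael (0.00745). The ranges over libraries of neighbours in this order overlapped, apart from 3 gaps. Every Dppa5a value (1.41 or more) lay above every Pou5f1 value (1.07 or less), every Pou5f1 value (0.738 or more) above every Dppa3 value (0.491 or less), and every Ddx4 value (0.139 or more) above every Dazl value (0.124 or less). By these means the survival genes Nanos3 and Dnd1 came first and Ddx4, Dazl, Tdrd12 and Mael last. The ranges of Dnd1 and Dppa5a overlapped, as did those of Ddx4 and Dppa4, so these groups were not separated from the genes between them. Reads shared with or lost to other genes, and the short Tdrd12 model, both described below, also limit this order. The first 7 genes had at least 3 reads in all 6 libraries, whereas Dazl had them in 4 libraries, Tdrd12 in 3 and Mael in 0.

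**Figure D1:**
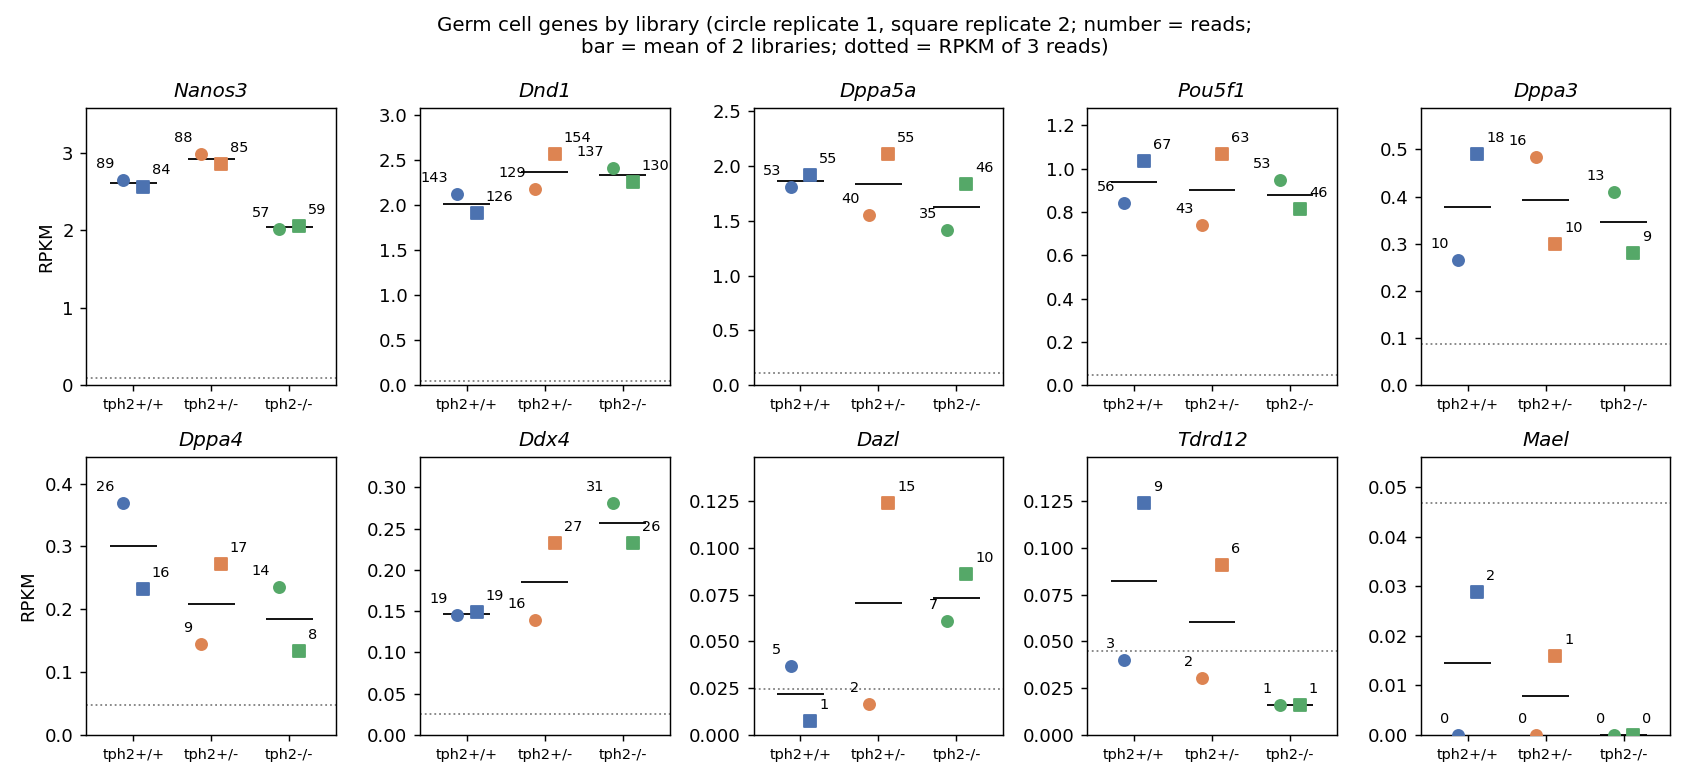
RPKM of each germ cell gene (vertical axes, linear from 0) in the 2 libraries of each genotype, with the reads behind each value as a number beside its point, a bar at the genotype mean and a dotted line at the mean RPKM of 3 reads. Nanos3 is lower in both tph2-/- libraries than in the other 4, and Mael stays under the dotted line in all 6.

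No germ cell gene passed the test between genotypes. In limma on log2(RPKM + 0.1), fitted to all 16388 genes whose mean reached 0.1 RPKM, 7 of the 10 members were tested, and 0 of 7 had an adjusted p under 0.05 in any of the 3 comparisons. Of all tested genes, 9.31% passed in tph2-/- against tph2+/+ (1050 genes or 6.41% higher, 476 or 2.90% lower), 5.74% in tph2+/- against tph2+/+ (4.27% higher, 1.46% lower) and 1.62% in tph2-/- against tph2+/- (1.07% higher, 0.549% lower). At an unadjusted p under 0.05 the members' count was 1, 0 and 1 in that order, each time Nanos3. The split of all calls in tph2-/- against tph2+/+ was 756 higher and 700 lower after quantile normalization, and 916 and 699 after median-ratio scaling. The median log2 fold change of the 7 members was -0.08 in tph2-/- against tph2+/+ (0.04 over all tested genes), 0.06 in tph2+/- against tph2+/+ (0.03), and -0.11 in tph2-/- against tph2+/- (0.000241). Fewer germ cells and less RNA per germ cell cannot be told apart in these bulk libraries, here and in all that follows. Nor can genotype be told apart from sex-linked expression in tph2-/- against tph2+/+. The comparisons with tph2+/- are also unbalanced in sex-linked expression, since its libraries differed from each other. Xist, the RNA of the inactive X chromosome, was at 79.1 and 76.3 RPKM in the tph2+/+ libraries, 101 and 0.0916 in the tph2+/- libraries and 0.0590 and 0.114 in the tph2-/- libraries.

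**Figure D2:**
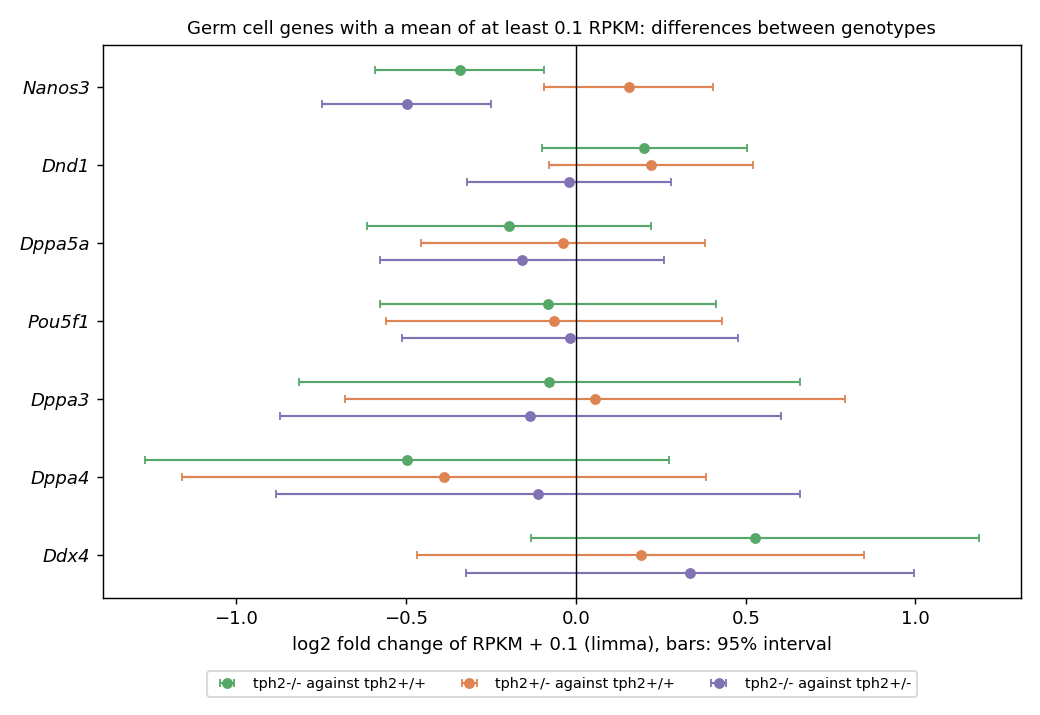
log2 fold changes (horizontal axis) with 95% intervals from limma for the 7 members with a mean of at least 0.1 RPKM, in 3 genotype comparisons. For Nanos3 the intervals of tph2-/- against both other genotypes lie below 0, and every other interval includes 0.

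Nanos3 and Dnd1 encode RNA-binding proteins that act together on target mRNAs and are needed for germ cells to survive migration. Nanos3 (chromosome 8, 84173731 to 84185217, minus strand, GRCm38, protein coding) had 2.65 and 2.57 RPKM in the tph2+/+ libraries, 2.99 and 2.85 in the tph2+/- libraries and 2.01 and 2.06 in the tph2-/- libraries. These values rest on 89 and 84, 88 and 85, and 57 and 59 reads. Both tph2-/- libraries lay below the other 4, as did those of 10.3% of all tested genes, and the genotypes did not overlap in any comparison. The log2 fold change was -0.34 ± 0.109 (SE) in tph2-/- against tph2+/+ (95% interval -0.59 to -0.09, limma adjusted p = 0.09). Against tph2+/- it was -0.50 ± 0.109 (-0.75 to -0.25, adjusted p = 0.0716). Neither passed the threshold, although both intervals lie below 0 before adjustment for the number of genes. After quantile normalization the first comparison passed (-0.46, adjusted p = 0.0408). Over the 17 alternatives its adjusted p ran from that value to 0.503, which came with Ddx3y as a term in the fit, and the sign was negative in all of them. In tph2+/- against tph2+/+ Nanos3 had 0.16 ± 0.109 (-0.09 to 0.41, adjusted p = 0.5). The span of Nanos3 contains Mir181c and Mir181d, which only a long processed transcript covers. The model length behind the RPKM values, 730 bases, equals that of its coding transcript, which spans 84173733 to 84176552 and contains neither miRNA gene.

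Dnd1 (chromosome 18, 36763671 to 36766214, minus strand, protein coding), the member with the most reads, had 2.12 and 1.91 RPKM in the tph2+/+ libraries, 2.18 and 2.57 in the tph2+/- libraries and 2.41 and 2.26 in the tph2-/- libraries. Its read counts were 143 and 126, 129 and 154, and 137 and 130. Both mutant genotypes lay above tph2+/+ without overlap, by 0.20 ± 0.132 in tph2-/- (95% interval -0.10 to 0.50, limma adjusted p = 0.371) and 0.22 ± 0.132 in tph2+/- (-0.08 to 0.52, adjusted p = 0.416). The tph2-/- libraries thus lay below tph2+/+ for Nanos3 and above it for its partner Dnd1, with neither gene past the threshold. Dnd1 shares 140 bases with Wdr55 on the other strand, a gene at 17.9 to 20.8 RPKM. Strand is not recorded by the kit used, so reads in those bases cannot be assigned. How many of the Dnd1 reads came from Wdr55 was not measured, which limits every Dnd1 value given here.

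Pou5f1, Dppa3, Dppa4 and Dppa5a are known from pluripotent cells and stay on in early germ cells. Pou5f1 (chromosome 17, 35506018 to 35510772, plus strand), the gene for the transcription factor OCT4, had 0.844 and 1.04 RPKM in the tph2+/+ libraries, 0.738 and 1.07 in the tph2+/- libraries and 0.948 and 0.813 in the tph2-/- libraries. All 3 genotypes overlapped, and the range over libraries was 43 to 67 reads. In tph2-/- against tph2+/+ the log2 fold change was -0.08 ± 0.217 (95% interval -0.58 to 0.41, limma adjusted p = 0.847). The antisense gene Gm19553 covers 1475 bases of Pou5f1, so the same limit holds for this pair.

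Dppa5a (chromosome 9, 78367052 to 78368177, minus strand), which encodes a KH-domain RNA-binding protein, had 1.80 and 1.92 RPKM in the tph2+/+ libraries, 1.55 and 2.11 in the tph2+/- libraries and 1.41 and 1.84 in the tph2-/- libraries. Its tph2+/- libraries span all but 1 of the other values, so the genotypes overlapped (tph2-/- against tph2+/+ -0.20 ± 0.184, 95% interval -0.62 to 0.22, limma adjusted p = 0.537). Dppa3 (chromosome 6, 122626410 to 122630272, plus strand), also called Stella, encodes a protein that guards DNA methylation in the zygote and marks germ cells from their founding. It had 0.266 and 0.491 RPKM in the tph2+/+ libraries, 0.485 and 0.299 in the tph2+/- libraries and 0.410 and 0.280 in the tph2-/- libraries, from 9 to 18 reads. Libraries of 1 genotype lay further apart than any 2 genotype means, and the difference of tph2-/- from tph2+/+ was -0.08 with an interval of -0.81 to 0.66 (adjusted p = 0.906). The annotation holds the copies Dppa5b, Dppa5c and Dppa3-ps, not analysed here, so some reads of both genes may have been split or lost.

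Dppa4 (chromosome 16, 48283733 to 48294237, plus strand), which encodes a chromatin protein that works with DPPA2, had 0.369 and 0.233 RPKM in the tph2+/+ libraries, 0.145 and 0.271 in the tph2+/- libraries and 0.235 and 0.133 in the tph2-/- libraries. Behind these lay 26 and 16, 9 and 17, and 14 and 8 reads. The tph2+/+ mean was the highest, 0.301 ± 0.0962 (SD, n = 2) against 0.184 ± 0.0725 in tph2-/-, but the libraries overlapped. The log2 fold change of tph2-/- against tph2+/+ was -0.50 ± 0.339 (95% interval -1.27 to 0.27, limma adjusted p = 0.392).

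Ddx4 and Dazl are switched on as germ cells reach the genital ridge, Ddx4 encoding the DEAD-box RNA helicase of germ granules and Dazl an RNA-binding protein of gametogenesis. Ddx4 (chromosome 13, 112598333 to 112652475, minus strand) had 0.145 and 0.149 RPKM in the tph2+/+ libraries, 0.139 and 0.232 in the tph2+/- libraries and 0.281 and 0.233 in the tph2-/- libraries. In the same order, its reads numbered 19, 19, 16, 27, 31 and 26. Both tph2-/- libraries lay above the other 4, though by little in the case of tph2+/- replicate 2 (0.232 against 0.233 RPKM). In tph2-/- against tph2+/+ Ddx4 had a log2 fold change of 0.53 ± 0.289 (95% interval -0.13 to 1.19, limma adjusted p = 0.287). The ratio of reads at equal depth was 1.75 with a 95% exact interval of 1.14 to 2.71, an interval for counting error that leaves out the spread between embryos.

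Dazl (chromosome 17, 50279395 to 50293636, minus strand) was close to detection, at 0.0367 and 0.00752 RPKM in the tph2+/+ libraries, 0.0167 and 0.124 in the tph2+/- libraries and 0.0609 and 0.0860 in the tph2-/- libraries. Its reads were 5 and 1, 2 and 15, and 7 and 10, against a level of 3 reads at 0.0220 to 0.0261 RPKM. The tph2-/- libraries lay above both tph2+/+ libraries, and the tph2+/- libraries held the highest value and the second lowest. The tph2-/- to tph2+/+ ratio was 3.30 (1.24 to 10.2, counting error only). With a mean under 0.1 RPKM Dazl was not in the main test, and in the fit without a filter its log2 fold change was 0.51 ± 0.322 (limma adjusted p = 0.398).

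Ddx4, Dazl and Dnd1 shared 1 pattern that separated the 2 tph2+/- libraries and otherwise ran with genotype. Between tph2-/- and tph2+/+ this pattern cannot be told apart from genotype. The 3 libraries with Y-linked Ddx3y at 8.14 to 9.82 RPKM were tph2+/- replicate 2 and both tph2-/- libraries, and the other 3 had at most 0.0214. Ddx4 had 26 to 31 reads in the first 3 and 16 to 19 in the others, Dazl 7 to 15 and 1 to 5, and Dnd1 was at 2.26 to 2.57 RPKM and at 1.91 to 2.18 RPKM. These libraries were split after the values were seen, and no test was made of the split. Of the 7 tested members 2 were higher in all 3 Ddx3y libraries and none lower, against 12.2% higher and 5.61% lower over all tested genes. With low genes included 3 of 10 members were higher and none lower, against 11.1% and 5.06% of 19818 genes. Between the tph2+/- libraries, which share a genotype, the ratio of replicate 2 to replicate 1 was 7.41 for Dazl (1.72 to 66.8), 1.67 for Ddx4 (0.867 to 3.31) and 1.18 for Dnd1 (0.928 to 1.5), all with intervals for counting error alone. A higher level in replicate 2 was not particular to these 3 genes. The same ratio was 2.96 for Tdrd12 (0.53 to 30), 1.87 for Dppa4 (0.787 to 4.75), 1.45 for Pou5f1 and 1.36 for Dppa5a. It was 0.955 for Nanos3 and 0.618 for Dppa3, and Mael had 1 read against 0. With the Ddx3y level as a term in limma, the tph2-/- against tph2+/+ difference was 0.04 for Ddx4 (adjusted p = 0.972) and -0.03 for Dnd1 (adjusted p = 0.952). That term rests on the 2 tph2+/- libraries, the sole pair of a genotype that differed in Ddx3y. Whether sex or another difference between those embryos moved these genes was not tested.

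**Figure D3:**
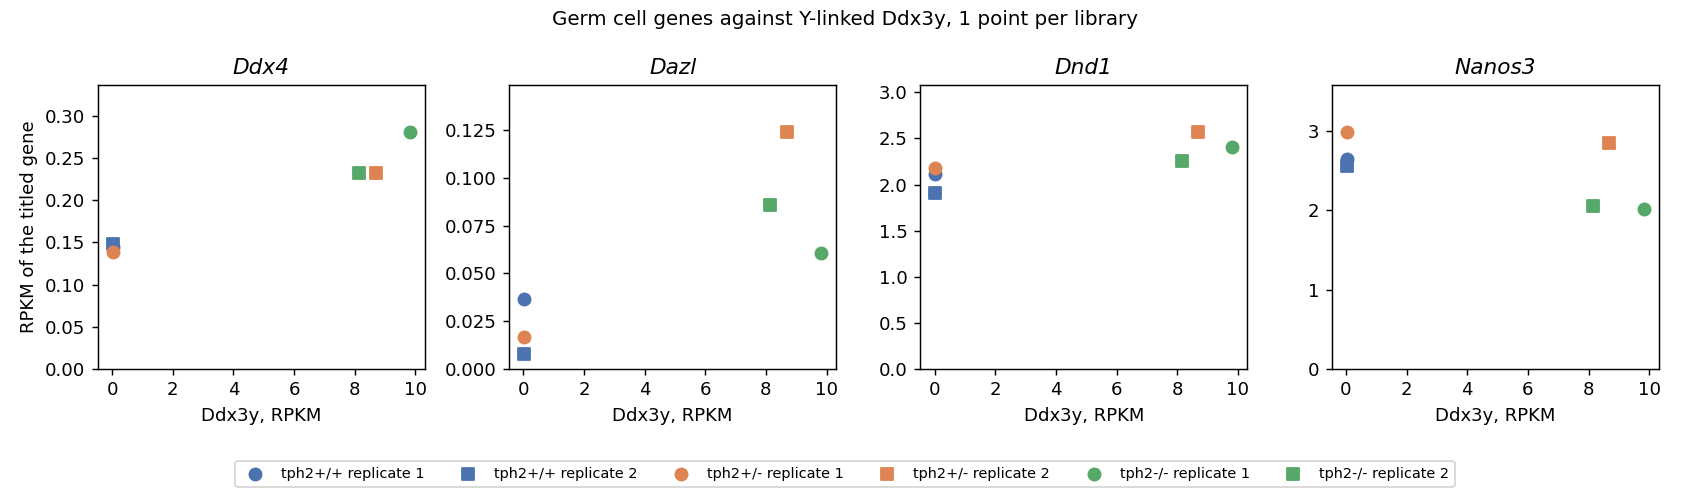
RPKM of Ddx4, Dazl, Dnd1 and Nanos3 (vertical axes) against RPKM of Y-linked Ddx3y (horizontal axes), 1 point per library, coloured by genotype, circles for replicate 1 and squares for replicate 2. For the first 3 genes the libraries with Ddx3y above 8 RPKM lie above all others, while Nanos3 is lower in the tph2-/- libraries and not in tph2+/- replicate 2.

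Promoters of 6 members were matched in the RefSeq table (GRCm38.p6), those of Ddx4, Dazl, Mael, Nanos3, Pou5f1 and Tdrd12. Promoters of Dnd1, Dppa3, Dppa4 and Dppa5a were not analysed here. The 4 shown are those of Ddx4 and Dazl, which are 2 of the 3 genes with the shared pattern, of Nanos3, which differed from them, and of Mael, the gene nearest 0. Each is the 250 bases before the annotated start, 5′ to 3′ on the gene's strand. Capitals mark CACGTG, the E-box bound by MAX and MGA, and TCCCGC, the core of E2F sites, each searched on both strands (TCCCGC reads GCGGGA on the other strand), and the letters of these motifs did not overlap. Ddx4 lies at chr13:112652311-112652560 (minus strand), Dazl at chr17:50293621-50293870 (minus), Mael at chr1:166238745-166238994 (minus) and Nanos3 at chr8:84176553-84176802 (minus).
Ddx4: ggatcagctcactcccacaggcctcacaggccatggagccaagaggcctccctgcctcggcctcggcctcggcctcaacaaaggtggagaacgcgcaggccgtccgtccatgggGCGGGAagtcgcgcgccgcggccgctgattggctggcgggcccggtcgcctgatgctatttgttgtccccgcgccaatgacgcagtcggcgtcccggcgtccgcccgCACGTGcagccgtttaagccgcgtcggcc
Dazl: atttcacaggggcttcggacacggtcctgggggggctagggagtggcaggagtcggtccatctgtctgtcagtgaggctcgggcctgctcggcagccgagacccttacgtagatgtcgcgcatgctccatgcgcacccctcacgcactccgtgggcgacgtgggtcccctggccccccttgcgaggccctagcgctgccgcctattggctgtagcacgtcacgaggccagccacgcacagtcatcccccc
Mael: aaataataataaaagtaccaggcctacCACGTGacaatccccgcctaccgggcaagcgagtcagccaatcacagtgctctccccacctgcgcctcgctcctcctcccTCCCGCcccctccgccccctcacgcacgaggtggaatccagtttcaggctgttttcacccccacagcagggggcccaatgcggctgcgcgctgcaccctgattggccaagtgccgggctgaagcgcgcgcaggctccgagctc
Nanos3: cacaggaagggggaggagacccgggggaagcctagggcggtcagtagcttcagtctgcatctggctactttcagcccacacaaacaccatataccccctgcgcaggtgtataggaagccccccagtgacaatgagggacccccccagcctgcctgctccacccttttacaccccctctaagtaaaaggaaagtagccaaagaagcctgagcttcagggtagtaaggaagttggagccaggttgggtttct
The Ddx4 and Mael windows each held both motifs, a combination found in 1.45% of 32851 promoter windows of the same length (CACGTG in 6.02%, TCCCGC in 16.9%). The Dazl and Nanos3 windows held neither, nor did the 2 windows each of Pou5f1 and Tdrd12, so 2 of the 6 matched members held the motifs. Ddx4 and Dazl thus did not share these letters. CpG counts were 31 for Ddx4, 20 for Dazl and 18 for Mael, above those of 95%, 82% and 78% of the windows, where the median was 6. They were 3 for Nanos3, 8 and 6 for Pou5f1, and 6 and 5 for Tdrd12. In Ddx4 the E-box began 29 bases and the E2F core 136 bases before the start. Such matches describe letters in a window and not bound sites, and the table gives no measure of methylation or binding.

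Mael and Tdrd12 act in the piRNA pathway, in which small RNAs silence transposons in germ cells, Mael as a nuage protein and Tdrd12 as a Tudor-domain helicase. Mael (chromosome 1, 166201201 to 166238747, minus strand) had 0 and 2 reads in the tph2+/+ libraries, 0 and 1 in the tph2+/- libraries and 0 and 0 in the tph2-/- libraries. It was under 3 reads in all 6 libraries, and a count of 0 allowed up to 0.0501 and 0.0495 RPKM in the tph2-/- libraries, so no fold change is given. Tdrd12 (chromosome 7, 35469098 to 35537745, minus strand) had 0.0402 and 0.124 RPKM in the tph2+/+ libraries, 0.0306 and 0.0906 in the tph2+/- libraries and 0.0159 and 0.0157 in the tph2-/- libraries. That is 3 and 9, 2 and 6, and 1 and 1 reads, so both tph2-/- libraries were lowest, at a level under detection. The tph2-/- to tph2+/+ ratio of Tdrd12 was 0.194 with a counting interval of 0.0211 to 0.872. In the fit without a filter its log2 fold change was -0.61 ± 0.290 (limma adjusted p = 0.265). The model length behind its values, 1621 bases, is near that of 1 of its transcripts (1620 bases) and well under the 3651 bases of the longest one, so reads on the rest of the gene may be missing.

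Counted without a test, 3 of 7 tested members had libraries that did not overlap in tph2-/- against tph2+/+, 2 higher (Ddx4 and Dnd1) and 1 lower (Nanos3), against 58.3% of all tested genes (35.9% higher, 22.4% lower). In tph2+/- against tph2+/+ it was 2 of 7, Dnd1 and Nanos3, both higher, against 51.0% (32.5% higher, 18.5% lower), and in tph2-/- against tph2+/- 2 of 7, Ddx4 higher and Nanos3 lower, against 42.5% (21.5% higher, 21.0% lower). These shares do not stand above those of genes at large. Nor did they vary together over the libraries. Of 21 pairs of the 7 tested members 11 had a positive Pearson's r over the 6 libraries and 10 a negative one, from 0.76 for Ddx4 with Dnd1 to -0.70 for Ddx4 with Nanos3. These correlations are descriptions over 6 libraries that share depth and dissection.

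Other germ cell genes were taken from 4 lists with 66 genes, of which 45 were tested. In tph2-/- against tph2+/+ 4 rose, 2 fell and 39 did not pass, and in tph2+/- against tph2+/+ 4 rose, 1 fell and 40 did not pass. Between the mutant genotypes 1 was higher and 2 were lower in tph2-/-. The shares of all tested genes that passed were 9.31%, 5.74% and 1.62% in that order of comparisons. Among 13 tested genes of germ line specification and pluripotency, Kit, the receptor for stem cell factor, and Sall4, a zinc finger factor of stem and germ cells, rose in tph2-/- (list median -0.03, 0.04 over all tested genes). Kit had 5.55 ± 0.0172 RPKM (SD, n = 2) with tph2+/+ and 7.48 ± 0.273 with tph2-/-, a log2 fold change of 0.42 ± 0.0720 (SE, limma adjusted p = 0.00846). Sall4 had 1.69 ± 0.0268 and 2.74 ± 0.427 RPKM (0.66 ± 0.170, adjusted p = 0.0458). Kit is also expressed by blood progenitors of the AGM, and its level was above that of all 10 germ cell genes in every library. In tph2+/- Kit rose by 0.30 ± 0.0720 (adjusted p = 0.0464), a call that 15 of 17 alternatives did not keep. Named after their values were seen, Prdm14, a factor restricted to germ cells and pluripotent cells, was at 0.00944 to 0.0688 RPKM, and Nanog, a pluripotency factor, at 0.0761 to 0.361 RPKM. Ifitm3 and Ifitm1, membrane proteins first studied on germ cells, had the highest levels of the list that did not pass, with log2 fold changes of -0.03 ± 0.0979 and 0.09 ± 0.124 in tph2-/- against tph2+/+.

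Of 9 tested genes of the piRNA pathway and germ granules, and of 12 tested meiosis and germ line promoter genes, 0 passed in any comparison by limma, and in tph2-/- against tph2+/+ 1 gene of each list had an unadjusted p under 0.05. The list medians in tph2-/- against tph2+/+ were 0.23 and 0.21 (0.04 over all tested genes). The highest of these genes were Tdrd7, a Tudor protein, at 2.36 to 3.77 RPKM, Tdrkh, a mitochondrial piRNA factor, at 1.45 to 1.92, Rec8, a meiotic cohesin subunit, at 5.67 to 6.27, and Stag3, another, at 1.51 to 1.95. In tph2-/- against tph2+/+ their log2 fold changes were -0.01 ± 0.158, 0.26 ± 0.138, -0.04 ± 0.0792 and -0.03 ± 0.158 in that order. Meioc, a meiosis gene listed in the table under its older symbol Gm1564 and named after its values were seen, followed Ddx3y as Ddx4 and Dazl did. It was at 0.109 and 0.102 RPKM in the tph2+/+ libraries, 0.125 and 0.30 in the tph2+/- libraries and 0.260 and 0.256 in the tph2-/- libraries. Of 34 tested genes of the first 3 lists 6 were higher and 1 lower in all 3 Ddx3y libraries, beside the 12.2% and 5.61% given above.

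Of 11 genes of germ cell migration and of the cells around germ cells, 4 changed in each mutant genotype against tph2+/+, 2 higher and 2 lower in tph2-/- and 3 higher and 1 lower in tph2+/- (list medians -0.06 and 0.14). Over all tested genes 9.31% and 5.74% passed in these comparisons. Many of them are also expressed in the mesenchyme and epithelia of the region. Bmp4, a signal that induces germ cells earlier in development, fell from 25.9 ± 1.25 RPKM (SD, n = 2) to 16.7 ± 1.07 with loss of both alleles (log2 fold change -0.64 ± 0.0670 SE, limma adjusted p = 0.000857). Wnt5a, a ligand needed for germ cell migration through Ror2, fell in tph2-/- (20.7 ± 0.494 to 16.9 ± 0.160 RPKM, -0.29 ± 0.0542, adjusted p = 0.0140) and rose in tph2+/- (to 28.7 ± 0.0147 RPKM, 0.47 ± 0.0542, adjusted p = 0.00161). The difference between the mutant genotypes was itself past the threshold (-0.76 ± 0.0542, adjusted p = 0.000446). Of the chemokine pair that guides germ cells, the ligand gene Cxcl12 fell in tph2+/- (50.7 ± 1.47 to 36.1 ± 0.566 RPKM, -0.49 ± 0.0526, adjusted p = 0.00119) and the receptor gene Cxcr4 rose in tph2-/- (4.79 ± 0.173 to 6.75 ± 0.133 RPKM, 0.49 ± 0.109, adjusted p = 0.0283).

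Epcam, an epithelial adhesion gene that germ cells share, rose in tph2+/- by 0.72 ± 0.0807 (limma adjusted p = 0.00148) and in tph2-/- by 0.31 ± 0.0807 (adjusted p = 0.0463), the latter lost in 11 of 17 alternatives. Gja1, a gap junction gene, rose in tph2+/- by 0.32 ± 0.0676 (adjusted p = 0.0284). Itgb1, an integrin germ cells need to colonise the gonad, had 0.06 ± 0.0690 in tph2-/-, and Ror2 -0.06 ± 0.0648, neither past the threshold. Among the calls in tph2-/- against tph2+/+, those of Sall4, Epcam, Cxcr4 and Wnt5a were lost when any 1 of the 4 libraries compared was left out, and that of Kit without either tph2+/+ library or tph2-/- replicate 1 (highest adjusted p 0.181, 0.306, 0.594, 0.209 and 0.163 over all alternatives). Bmp4 lost its call in 1 of 17 alternatives, with Ddx3y as a term (adjusted p = 0.0597). The Wnt5a, Epcam and Cxcl12 calls of tph2+/- against tph2+/+ held in all 17 alternatives, and Gja1 lost its call in 8, among them each of 5 left-out libraries.

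**Figure D4:**
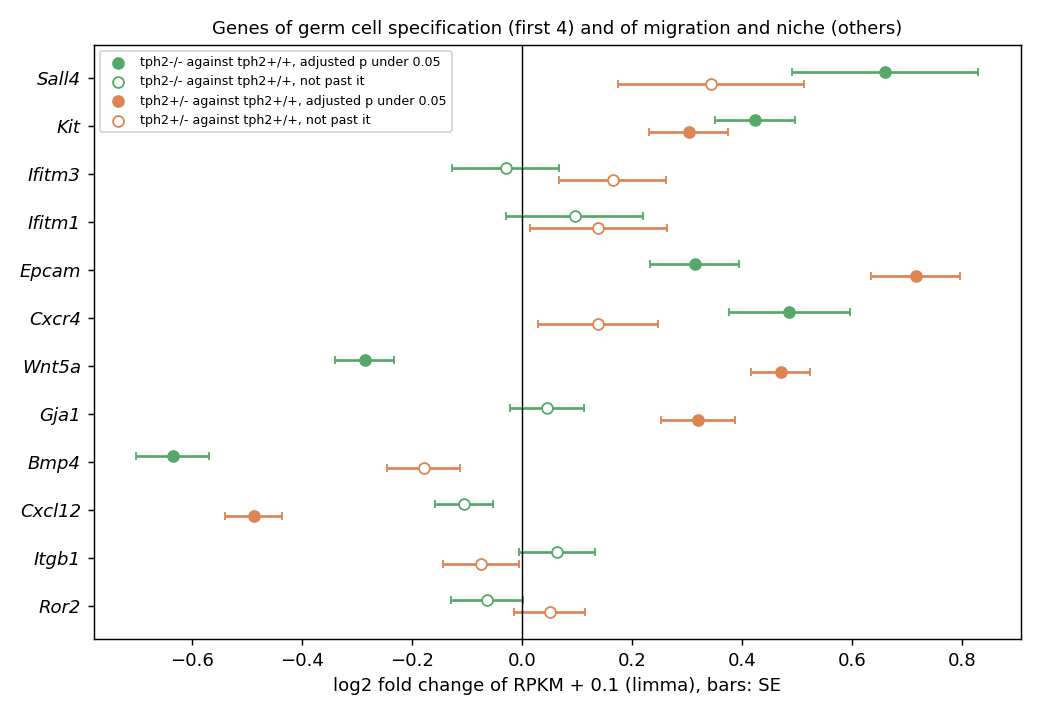
log2 fold changes (horizontal axis, bars SE) of the named genes of germ cell specification, migration and niche in both mutant genotypes against tph2+/+, with filled points past an adjusted p of 0.05. Wnt5a lies on opposite sides of 0 in the mutant genotypes, and Kit and Epcam are higher in both.

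Markers of other cell types, liver and neural cells among them, passed the threshold between genotypes, whereas none of the tested germ cell members did. Of all tested genes, 6.41% passed as higher and 2.90% as lower in tph2-/- against tph2+/+, and 4.27% and 1.46% in tph2+/-. Of 8 gonadal somatic genes 5 fell in tph2-/- (Amhr2, Cbx2, Emx2, Nr5a1 and Wt1), and in tph2+/- 3 fell (Amhr2, Emx2 and Wt1) and Lhx9 rose by 1.56 on the log2 scale. Gata4 and Upk3b passed in neither mutant genotype. The summed level of the 8 genes was 127 and 132 RPKM in the tph2+/+ libraries, 109 and 106 in the tph2+/- libraries and 98.0 and 104 in the tph2-/- libraries. Cbx2 alone gave 53.9 and 56.0, 49.3 and 46.3, and 41.4 and 44.2 RPKM of these sums. The 8 mesonephros genes summed to 10.8 to 13.5 RPKM in all libraries, but 2 fell and 1 rose in tph2-/-, and in tph2+/- 4 fell (Cdh16, Gata3, Pax2 and Sim1) and Wfdc2 rose, with a list median of -0.72. All 6 liver genes rose, from sums of 38 to 39.3 RPKM in tph2+/+ to 269 and 421 with tph2+/- and 396 to 422 with tph2-/-, and all 5 neural genes rose in tph2-/- (17.2 to 18.0 against 62.3 to 66.8 RPKM). No marker of these lists was at 0 in any library. Their part in the values of the germ cell genes was not tested.

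Over the 6 libraries the average of the 7 tested members, each standardized on the log2 scale, was highest in tph2+/- replicate 2 (0.737 SD) and lowest in tph2-/- replicate 2 (-0.416 SD). The 5 genes outside all lists whose levels followed that average most closely were Prrt3, Tor1aip1, Aph1b, Sstr4 and Lphn3, with Pearson's r of 0.99, 0.98, 0.98, 0.97 and 0.97 over 6 libraries. With so few libraries and 16388 genes such values are a description of the pattern alone.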

How the data were processed

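RNA sequencing of AGM regions was deposited as 1 table of RPKM values that the authors computed per gene and library, per the file headers. The submitters' processing notes name TopHat2 2.0.9, HTSeq 0.5.3p9 and the build GRCm38; the gene models are not given in the sources used here. Of 56826 rows, 33353 with cDNA clone identifiers and 27 with dates for names were left out. Depth came from the steps between low values and GENCODE transcript lengths. The intervals of read ratios cover counting error only (exact, 95%) and take depth as known.

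Differences were tested with limma 3.58.1 (R 4.3.3; lmFit, contrasts, eBayes with trend and robust options) on log2(RPKM + 0.1) of genes averaging 0.1 RPKM or more, all 6 libraries in 3 groups, no covariate, Benjamini-Hochberg over all tested genes, threshold 0.05. The scale understates changes of low genes. The fit was also run on simulated counts with the same length and spread setting for all genes. Those counts held no sex or dissection differences, so that run does not cover such differences. An exact permutation of 2 against 2 libraries cannot go below 0.333. P-values set the difference between genotype means against the spread between these libraries, which the fit moderates over all tested genes. The fixed design named a count test for counts; the table held RPKM. Members and lists were chosen with earlier results of these data known. All members were named. From each list of other germ cell genes the rule named those past the threshold against tph2+/+, at most 4 a direction, and the 2 highest others. The 17 alternatives included pseudocounts of 1 and 0.01, other filters, scalings, a Ddx3y term, a replicate block and each library left out.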

Additional observations from a re-analysis of the deposited data

How the results depend on the processing

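Members past the threshold stayed at 0 in every comparison and alternative, apart from 1 (Nanos3) in tph2-/- against tph2+/+ after quantile normalization. Of 345 member values under an alternative, 317 kept direction and side of the threshold, 27 changed sign, none of them past the threshold, and 1 passed it. Signs changed in the following cases. Quantile normalization gave -0.16 for Dppa3 and -0.0509 for Ddx4 in tph2+/- against tph2+/+. With Ddx3y as a term the values were 0.46 for Dppa3 and -0.0325 for Dnd1 in tph2-/- against tph2+/+, -0.0517 for Ddx4 in tph2+/- against tph2+/+, and 0.14 for Dppa3 in tph2-/- against tph2+/-. With 1 library left out, Dppa3 ran from -0.42 to 0.27 and Pou5f1 from -0.22 to 0.0509 in tph2-/- against tph2+/+. In tph2+/- against tph2+/+ the ranges were -0.29 to 0.40 for Dppa3, -0.0457 to 0.43 for Ddx4, -0.30 to 0.18 for Pou5f1 and -0.25 to 0.17 for Dppa5a. In tph2-/- against tph2+/- they were -0.41 to 0.14 for Dppa3, -0.26 to 0.22 for Pou5f1, -0.13 to 0.0945 for Dnd1, -0.37 to 0.0516 for Dppa5a and -0.41 to 0.19 for Dppa4. A genotype left with 1 library was assumed to vary like the others.

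Counts over all genes (1526, 940 and 266) were 767, 516 and 146 without limma's trend and robust options, 408 in tph2-/- against tph2+/+ with Ddx3y as a term, and 166 in tph2-/- against tph2+/- for genes with a mean of 1 RPKM and pseudocount 1. With 1 library left out they ran from 503 to 1747, 434 to 932 and 64 to 320. The count of other germ cell genes in tph2-/- against tph2+/+ (6) was 3 without trend and robust options, 3 over all rows, 0 with Ddx3y as a term, and 1 to 6 with 1 library left out. In tph2+/- against tph2+/+ (5) it was 3 after median-ratio scaling, 3 with the 4 libraries alone, and 3 to 4 with 1 left out. In tph2-/- against tph2+/- (3) it was 1 without trend and robust options. These counts of other genes under alternatives were chosen after seeing the data. The cause of each shift was not tested. Values under 20 reads are limited by depth. They include every value of Dppa3, Dazl, Tdrd12 and Mael and some of Dppa4 and Ddx4.

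Whether the replicate numbers pair the libraries is not known from the labels. The difference of replicate 1 from replicate 2 correlated across genes by 0.03 to 0.05 between genotypes. Such values cannot show which libraries shared a litter. With a replicate block the members' count was 0, 0 and 0 and that of all genes 1819, 1018 and 285, and Nanos3 had adjusted p of 0.0938 and 0.0894 in tph2-/- against tph2+/+ and tph2+/-. Among other germ cell genes the block ended the calls of Sall4 in tph2-/- and of Kit in tph2+/-.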
